A study of Mus musculus with 1 sample.

Results

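The 9 genes described here, of 32285 rows in the deposited matrix, encode proteins with which blood stem and progenitor cells hold on to the bone marrow niche or travel to and from it: Cxcr4, Itga4, Itgb1, Itga6, Itgal, Itgb2, Itgam, Selplg and Cd44. They were taken by symbol, each symbol matched 1 row, and all 9 had UMIs in the cells kept (82771 UMIs in all). CXCR4 is the receptor of CXCL12, the chemokine that stromal cells make to retain progenitors in marrow. Integrins are pairs of an alpha and a beta chain that bind matrix or other cells once they are activated inside the cell. PSGL-1, the product of Selplg, carries the sugars that selectins bind when cells roll along vessels, and CD44 binds hyaluronan.

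RNA of single bone marrow cells was sequenced from 1 library, made from C57BL/6 mice that carry floxed Brd9 (Brd9 fl/fl) without Cre, the control group of a study of BRD9, a subunit of the non-canonical BAF chromatin remodelling complex. These controls had also received polyinosinic-polycytidylic acid (pIpC), which induces interferon and in the deleted mice switches on Cre, at 20 mg/kg in 3 doses, and were sampled 8 weeks later. The sample's labels name a CD45.2 donor and a CD45.1 recipient, with the first dose 4 weeks after a transplant. The series text instead describes mice without a transplant, dosed 4 weeks after birth. Which applies was not settled here, nor is it stated whether animals were pooled. The cells were sorted as lineage-negative and Kit-positive, and 65.8% of the cells kept had a Kit UMI. The lineage antibodies that the study lists for flow cytometry include one to CD11b, the protein of Itgam. Those of this sort are not listed apart, so levels of Itgam and of its partner Itgb2 describe what a sort against CD11b may have left.

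Each captured transcript counted once, as a unique molecular identifier (UMI). Of 8817 barcodes, the study's cell filter kept 7645 (86.7%), with 1592 to 49991 UMIs per cell and a median of 18696. Cells were put into gates by the UMIs of marker genes, none of which was one of the 9 genes, and 6305 cells (82.5%) entered 1 of 11 gates. Another 958 passed none. A cell that passed the limits of a broader and of a more committed gate went to the latter, so the granulocyte-monocyte-like gate kept 1021 of 3284 cells that passed its limits and the Flt3 multipotent-like gate 192 of 527. The 382 cells that passed several gates with no such order were left out. A gate is a range of marker levels and not a cell type, and 222 cells lay within 20% of the stem-like limit, 289 of the Flt3 multipotent-like limit and 354 of the monocyte-like limit. Levels are a gate's summed UMIs of a gene per 1000000 UMIs (CPM). With 1 library there was no replicate and no test, and the 95% intervals (Poisson for levels, conditional binomial for ratios, Clopper-Pearson for shares of cells) cover counting error only.

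The gates held 873 stem-like cells, which led with Procr, Mecom and Hlf, and 192 Flt3 multipotent-like cells. The first leading gene of the latter was Dntt, a marker of the lymphoid-primed-like list, ahead of Flt3 and Satb1. There were 92 lymphoid-primed-like cells, with Ly6d, Dntt and Rag1, and 1021 granulocyte-monocyte-like cells. Past these stood 470 neutrophil-like, 1596 monocyte-like, 197 dendritic-like, 351 basophil or mast-like, 332 megakaryocyte-like and 1156 erythroid-like cells. A gate of 25 eosinophil-like cells was under the minimum of 50 and was not compared. The lymphoid-primed-like gate also had Ebf1 and Vpreb3, genes of the B cell list, among its 10 leading genes, and the 5 genes of that list summed to 529.7 CPM there. Median depth ran from 8721 UMIs in stem-like to 32789 in erythroid-like cells, so shares of cells with a UMI were compared at 5000 UMIs drawn from each cell (thinning).

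Markers of stromal cells were at or near 0. Over all cells kept, Cxcl12 had 1 UMI, and Col3a1 of the stromal and endothelial list was at 0 in all 11 gates. The 6 genes of that list summed to 3.31 CPM, with 27.6 CPM in stem-like cells, most of it Emcn (169 of 242 UMIs). The 5 macrophage genes summed to 3.11 CPM over all cells and to 9.35 CPM in monocyte-like cells, which held 319 of 472 UMIs, 215 of them of Adgre1. The 8 immediate early genes, which cell handling can induce, ran from 405.2 CPM in neutrophil-like to 4697.9 in basophil or mast-like and 5768.4 in stem-like cells. The 8 interferon response genes, read because of pIpC, ran from 92.0 CPM in erythroid-like to 416.9 in lymphoid-primed-like cells, where Bst2 held 412 of 551 UMIs. Without Bst2 the sums ran from 26.5 CPM in neutrophil-like to 146.2 in dendritic-like cells, with 130.4 in stem-like and 105.2 in lymphoid-primed-like cells. The part of these differences in the results was not tested.

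The genes differed widely in how far their level moved between gates. Itgb1 and Itga4 had the narrowest ranges, with ratios of the highest to the lowest of 10 gates of 3.26 (interval 2.60 to 4.13) and 3.66 (interval 3.18 to 4.2). Cxcr4 and Cd44 followed at 6.16 (interval 5.47 to 6.94) and 6.28 (interval 5.03 to 7.88). The ratio was 15.9 (interval 14.2 to 17.8) for Itga6 and 30 (interval 27.2 to 33.3) for Selplg. It was 34.3 (interval 28.4 to 41.6) for Itgb2 and 41.7 (interval 31.1 to 56.8) for Itgal. For Itgam the lowest gate held 1 UMI, and the ratio was 119.2 with an interval of 21.1 to 4734.5. Itgal, Itgb2 and Itgam thus had wider ranges than Itgb1 and Itga4. They also had lower levels over all cells kept, 23.1, 17.3 and 6.36 CPM against 116.8 and 124.8. Their lowest gates held 1.48, 4.45 and 0.161 CPM, so their ratios rest on levels near 0.

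**Figure D1:**
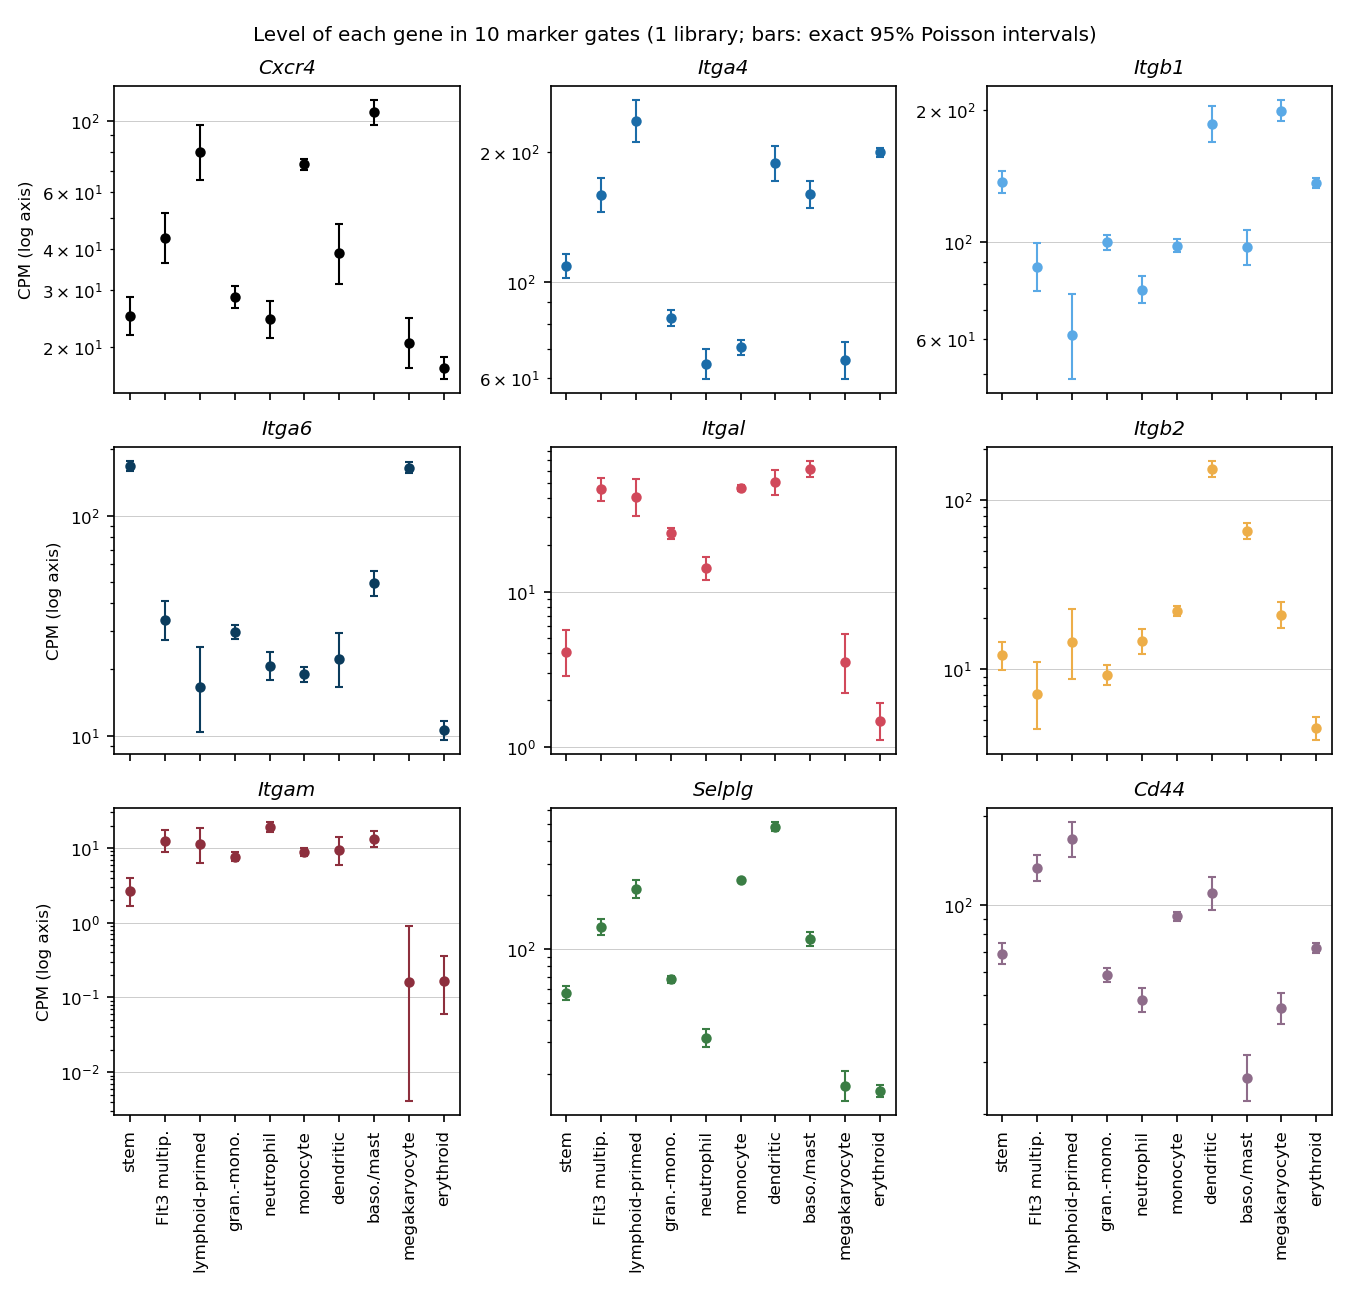
Level of each of the 9 genes (CPM, log axes that differ between panels) in 10 gates of 1 library, with exact 95% Poisson intervals. Itga6 stood at 168.0 CPM in stem-like and 165.4 in megakaryocyte-like cells and at 49.4 or less in the other gates, and Itgam was at 0.161 and 0.165 CPM in megakaryocyte-like and erythroid-like cells.

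Promoter sequence from RefSeq (GRCm38.p6) was at hand for 5 of the 9 genes, and those of Itgam, Itgb1 and Cxcr4 are shown because they are the genes with the widest and the narrowest range between gates and the chemokine receptor. Each is the 250 bases before the RefSeq start of transcription, 5′ to 3′ on the strand of the gene. The bases after this start were found in a GENCODE transcript for Itgam and Itgb1, and not for Cxcr4. The Cxcr4 window stops at 128592300 and does not abut the GENCODE end of the gene at 128592293. Capitals mark 4 motifs on either strand: the PU.1 core GAGGAA, the GATA motif AGATAA, the RUNX motif TGNGGT and the GC box GGGCGG.
Itgam, chr7:128062390-128062639, plus strand: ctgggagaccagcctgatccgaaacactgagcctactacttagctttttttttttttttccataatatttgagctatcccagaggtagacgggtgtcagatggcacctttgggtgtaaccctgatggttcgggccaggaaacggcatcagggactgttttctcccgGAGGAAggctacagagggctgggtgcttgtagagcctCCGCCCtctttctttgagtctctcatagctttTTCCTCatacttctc
Itgb1, chr8:128685404-128685653, plus strand: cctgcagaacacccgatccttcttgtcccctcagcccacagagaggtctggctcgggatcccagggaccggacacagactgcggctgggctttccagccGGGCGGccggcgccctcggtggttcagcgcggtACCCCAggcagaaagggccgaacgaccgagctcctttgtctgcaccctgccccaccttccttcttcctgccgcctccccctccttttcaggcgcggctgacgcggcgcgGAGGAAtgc
Cxcr4, chr1:128592300-128592549, minus strand: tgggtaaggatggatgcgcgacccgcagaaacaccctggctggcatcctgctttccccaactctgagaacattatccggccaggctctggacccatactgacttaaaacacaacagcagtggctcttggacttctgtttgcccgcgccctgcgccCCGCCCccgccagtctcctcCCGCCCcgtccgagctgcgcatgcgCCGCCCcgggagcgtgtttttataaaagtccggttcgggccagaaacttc
In Itgam the PU.1 core letters began 84 and 15 bases before the start and a GC box at 47. In Itgb1 the PU.1 core began 9 bases before the start, the RUNX letters at 118 and a GC box at 151. Cxcr4 had 3 GC boxes, at 95, 75 and 50. Among the 5 promoters at hand, the PU.1 core was in 3, the GATA motif in 1, the RUNX motif in 2 and the GC box in 4. Over 32851 RefSeq windows of 250 bases the shares with these letters were 23.3%, 9.99%, 40.1% and 32.7%. These matches are a description of letters, and binding was not measured here.

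The chemokine receptor was highest in the granule-bearing basophil or mast-like cells and low in stem-like cells. Cxcr4 (ENSMUSG00000045382, GRCm38 chromosome 1, 128588199 to 128592293, minus strand) had its highest level in basophil or mast-like cells, 106.2 CPM (interval 97.1 to 115.8). Lymphoid-primed-like cells followed with a Cxcr4 level of 80.2 CPM (interval 65.7 to 97.0) and monocyte-like cells at 73.2 (interval 70.4 to 76.1), and those 2 neighbours did not differ beyond counting error. The levels then ran through Flt3 multipotent-like (43.4), dendritic-like (38.9), granulocyte-monocyte-like (28.5), stem-like (24.9), neutrophil-like (24.3) and megakaryocyte-like cells (20.6) to erythroid-like cells at 17.2 CPM. Of the 9 steps in this order, 3 were beyond counting error: that below the top gate, that from monocyte-like to Flt3 multipotent-like cells and that from dendritic-like to granulocyte-monocyte-like cells. After thinning, 42.6% of basophil or mast-like cells had a Cxcr4 UMI (interval 37.3 to 48.0), against 11.9% of stem-like cells (interval 9.78 to 14.2). Before thinning the shares were 72.9% and 19.8%.

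The alpha 4 chain pairs with beta 1 as VLA-4, which binds VCAM-1 and fibronectin and is a main anchor of progenitors in marrow. Itga4 (ENSMUSG00000027009, chromosome 2, 79255426 to 79333123, plus strand, overlapped on the other strand by Cerkl) was highest in lymphoid-primed-like cells, with 236.8 CPM (interval 211.3 to 264.6), and erythroid-like cells at 200.2 (interval 195.6 to 204.8). Dendritic-like cells had 189.0 CPM, basophil or mast-like cells 160.0 and Flt3 multipotent-like cells 159.5. By level, stem-like cells stood in the middle at 109.3 CPM (interval 102.5 to 116.5). Granulocyte-monocyte-like (82.7), monocyte-like (70.7), megakaryocyte-like (66.1) and neutrophil-like cells (64.8) stood below them. By share of cells, Flt3 multipotent-like cells were not above stem-like cells. After thinning, 34.2% of Flt3 multipotent-like cells had an Itga4 UMI (interval 27.5 to 41.5), against 40.5% of stem-like cells (interval 37.2 to 43.8). These intervals overlapped. In the Flt3 multipotent-like gate, 1 cell held 31 of the 470 Itga4 UMIs. Among the lowest 3 gates no neighbours differed beyond counting error. The step from lymphoid-primed-like to erythroid-like cells was beyond counting error (ratio 1.18, interval 1.05 to 1.33), and that from erythroid-like to dendritic-like cells was not. Of erythroid-like cells 60.9% had an Itga4 UMI after thinning and 98.9% before it.

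The beta 1 chain is the shared partner of VLA-4 and VLA-6. Itgb1 (ENSMUSG00000025809, chromosome 8, 128685654 to 128733200, plus strand) was highest in megakaryocyte-like cells at 199.5 CPM (interval 188.6 to 211.0) and dendritic-like cells at 186.0 (interval 168.9 to 204.3), which did not differ beyond counting error. Stem-like (137.0) and erythroid-like cells (136.4) did not differ beyond counting error, with an interval of their ratio of 0.942 to 1.07. The other gates ran from granulocyte-monocyte-like cells (100 CPM, interval 96.0 to 104.0) through monocyte-like (98.0), basophil or mast-like (97.4), Flt3 multipotent-like (87.9) and neutrophil-like cells (77.9) to lymphoid-primed-like cells at 61.3 CPM (interval 48.7 to 76.2). By level, lymphoid-primed-like cells were therefore the lowest for the beta chain and the highest for its alpha 4 partner. By share of cells they were not the highest for Itga4. At equal depth 52.7% of them had an Itga4 UMI (interval 42.0 to 63.3), against 60.9% of erythroid-like and 59.0% of dendritic-like cells.

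The alpha 6 chain, which with beta 1 binds laminin as VLA-6, marked 2 gates. Itga6 (ENSMUSG00000027111, chromosome 2, 71745616 to 71858416, plus strand) stood at 168.0 CPM (interval 159.6 to 176.9) in stem-like and 165.4 (interval 155.4 to 175.8) in megakaryocyte-like cells, a ratio of 1.02 (interval 0.938 to 1.10). The next gate, basophil or mast-like, had 49.4 CPM, and megakaryocyte-like cells exceeded it 3.35-fold (interval 2.90 to 3.87). Below it came Flt3 multipotent-like (33.6), granulocyte-monocyte-like (29.5), dendritic-like (22.2), neutrophil-like (20.8), monocyte-like (19.1), lymphoid-primed-like (16.6) and erythroid-like cells (10.6). After thinning, 55.9% of stem-like and 56.8% of megakaryocyte-like cells had an Itga6 UMI, and 18.7% or less of the cells of each other gate compared. The annotation places Gm13663 and Gm13662 on the same strand inside Itga6, and both also had a row in the matrix, so reads could be split between them.

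The alpha L chain pairs with beta 2 as LFA-1, the leukocyte receptor of ICAM-1. Itgal (ENSMUSG00000030830, chromosome 7, 127296260 to 127335138, plus strand) was low at the stem, megakaryocyte and erythroid end and higher elsewhere. It had 4.11 CPM (interval 2.88 to 5.69) in stem-like, 3.55 (interval 2.22 to 5.37) in megakaryocyte-like and 1.48 (interval 1.11 to 1.93) in erythroid-like cells, from 36, 22 and 54 UMIs. Basophil or mast-like cells had 61.7 CPM (interval 54.9 to 69.2). Dendritic-like (50.9), monocyte-like (46.5), Flt3 multipotent-like (45.8) and lymphoid-primed-like cells (40.9) followed it, and none of these 5 differed from its neighbour beyond counting error. Granulocyte-monocyte-like cells had 23.7 and neutrophil-like cells 14.1 CPM. Itgal was 11.1-fold higher (interval 7.66 to 16.6) in Flt3 multipotent-like than in stem-like cells. After thinning, 2.21% of stem-like cells (interval 1.34 to 3.43) had an Itgal UMI, and 1.57% of the deeper erythroid-like cells (interval 0.93 to 2.46), and the intervals overlapped. By level, stem-like cells were above erythroid-like cells beyond counting error.

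The beta 2 chain was instead highest in dendritic-like cells. Itgb2 (ENSMUSG00000000290, chromosome 10, 77530252 to 77565708, plus strand) had 152.6 CPM (interval 137.2 to 169.3) there and 65.3 (interval 58.3 to 72.9) in basophil or mast-like cells. Monocyte-like (22.0) and megakaryocyte-like cells (20.8) came next, then neutrophil-like (14.6), lymphoid-primed-like (14.4), stem-like (12.0), granulocyte-monocyte-like (9.20), Flt3 multipotent-like (7.13) and erythroid-like cells (4.45). The step from monocyte-like to megakaryocyte-like cells was within counting error for Itgb2 (ratio 1.06, interval 0.876 to 1.28), while Itgal had 46.5 CPM in the first and 3.55 in the second. After thinning, 56.4% of dendritic-like cells had an Itgb2 UMI and 25.9% of basophil or mast-like cells, against 11% or less in each other gate compared.

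The alpha M chain, with beta 2 the complement receptor Mac-1 of mature myeloid cells, had 966 UMIs in all cells kept. Itgam (ENSMUSG00000030786, chromosome 7, 128062640 to 128118491, plus strand) was highest in neutrophil-like cells at 19.2 CPM (interval 16.5 to 22.2). Basophil or mast-like (13.3), Flt3 multipotent-like (12.6), lymphoid-primed-like (11.4), dendritic-like (9.41), monocyte-like (8.85) and granulocyte-monocyte-like cells (7.69) followed, and among these 6 no neighbours differed beyond counting error. Stem-like cells had 2.63 CPM from 23 UMIs. Erythroid-like cells had 6 UMIs in 1156 cells and megakaryocyte-like cells 1 in 332. After thinning, 9.81% of neutrophil-like cells had an Itgam UMI (interval 7.27 to 12.9), and 0 of 1150 erythroid-like cells, which allows a share of up to 0.261% by the limit of 3 counts and 0.320% by the Clopper-Pearson interval. The source of the 6 UMIs in erythroid-like cells was not measured, and that gate held 33 doublet calls. Its median depth was 32789 UMIs, against 19761.5 in neutrophil-like and 8721 in stem-like cells. These UMIs therefore give no measured background for the shallower gates. The annotation has Gm49368 on the same strand over Itgam.

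The selectin ligand gene was highest in dendritic-like and monocyte-like cells. Selplg (ENSMUSG00000048163, chromosome 5, 113818536 to 113832644, minus strand) had 481.4 CPM (interval 453.7 to 510.3) in dendritic-like and 241.7 (interval 236.5 to 247.0) in monocyte-like cells, a ratio of 1.99 (interval 1.87 to 2.12). Lymphoid-primed-like cells had 215.7, Flt3 multipotent-like cells 133.1 and basophil or mast-like cells 113.7 CPM. Granulocyte-monocyte-like (67.6), stem-like (56.8) and neutrophil-like cells (31.8) stood lower, and megakaryocyte-like (17.2) and erythroid-like cells (16.0) lowest, with no difference between the last 2 beyond counting error. Selplg was graded: 7 of its 9 steps were beyond counting error. Of dendritic-like cells 91.3% had a Selplg UMI after thinning (interval 86.4 to 94.8).

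The hyaluronan receptor followed a different order again. Cd44 (ENSMUSG00000005087, chromosome 2, 102811141 to 102901665, minus strand, with Gm23731 on the other strand) was highest in lymphoid-primed-like cells at 166.5 CPM (interval 145.2 to 190.0) and Flt3 multipotent-like cells at 133.7 (interval 120.9 to 147.6). Dendritic-like (109.9), monocyte-like (91.9), erythroid-like (72.2), stem-like (69.0), granulocyte-monocyte-like (58.6), neutrophil-like (48.1) and megakaryocyte-like cells (45.3) followed. Basophil or mast-like cells were lowest at 26.5 CPM (interval 22.1 to 31.5), although they were the highest for Cxcr4 and Itgal. Of the 9 steps between neighbours, 7 were beyond counting error.

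**Figure D2:**
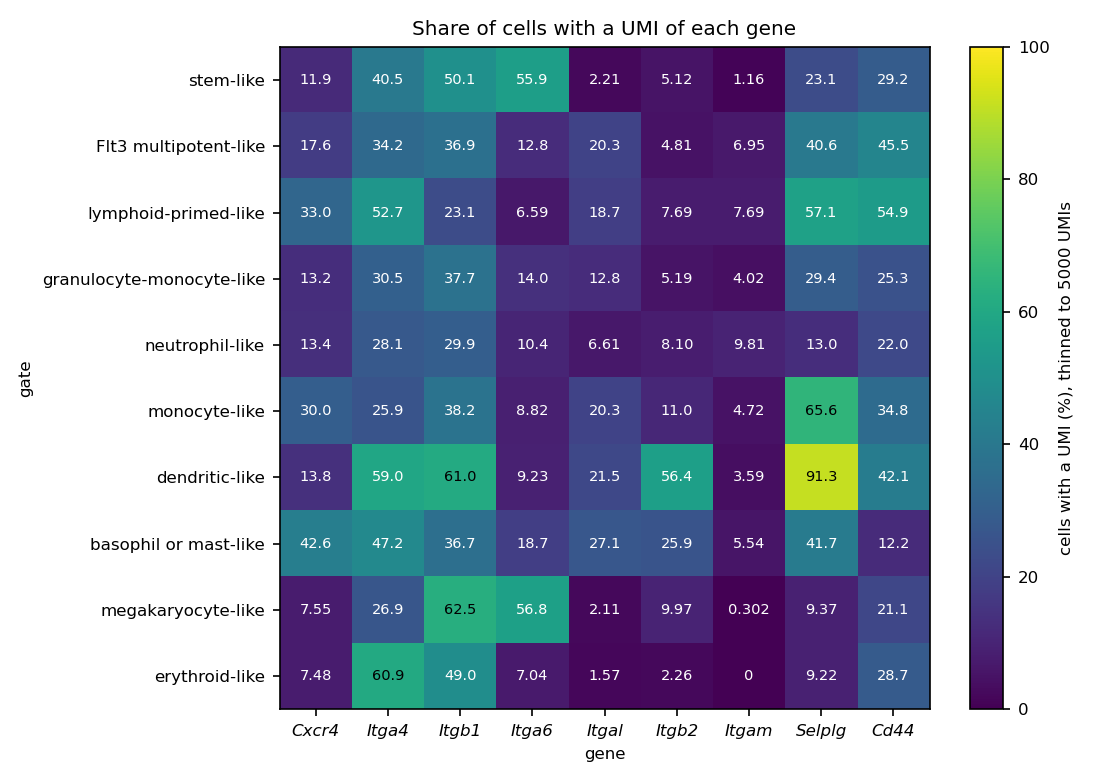
Share of cells (percent, colour and number) of each of 10 gates with a UMI of each of the 9 genes, at 5000 UMIs drawn per cell. The highest share was 91.3% for Selplg in dendritic-like cells, and Itgal was in 2.21% of stem-like, 2.11% of megakaryocyte-like and 1.57% of erythroid-like cells.

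An integrin needs both chains, so cells with a UMI of each were counted after thinning. Both VLA-6 chains were seen in 36.0% of megakaryocyte-like cells (119 of 331, interval 30.8 to 41.4) and 28.3% of stem-like cells (243 of 860, interval 25.3 to 31.4), and in 6.95% or less of each other gate compared. Both VLA-4 chains were seen in 36.9% of dendritic-like cells (interval 30.1 to 44.1), 30.1% of erythroid-like cells (interval 27.4 to 32.8) and 21.0% of stem-like cells (interval 18.4 to 23.9). The intervals of dendritic-like and erythroid-like cells overlapped for VLA-4. In the 2 gates highest for VLA-6, joint detection was close to what the single shares give: of cells with an Itga6 UMI, 50.5% in the stem-like and 63.3% in the megakaryocyte-like gate had an Itgb1 UMI, against 50.1% and 62.5% of all cells of these gates. Other gates lay further apart, in both directions. The shares were 54.2% against 36.9% in Flt3 multipotent-like (24 cells with an Itga6 UMI), 42.9% against 29.9% in neutrophil-like (49) and 39.5% against 49.0% in erythroid-like cells (81). Both LFA-1 chains were seen in 12.8% of dendritic-like (25 of 195, interval 8.47 to 18.3) and 8.75% of basophil or mast-like cells (30 of 343, interval 5.98 to 12.3). In stem-like cells they were seen in 2 of 860 cells (0.233%, interval 0.0282 to 0.838). Both Mac-1 chains were seen in 5 of 195 dendritic-like cells (2.56%, interval 0.838 to 5.88) and 2 of 469 neutrophil-like cells (0.426%, interval 0.0517 to 1.53). In erythroid-like cells both LFA-1 chains were seen in 1 of 1150 cells, inside the interval of the stem-like share. At 5000 UMIs a cell that carries both RNAs can show neither, and free RNA can add a stray UMI.

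Stem-like cells were then set against each other gate, and a gene was called where the levels differed at least 2-fold, among genes with 50 UMIs or more in both gates together. Of the 9 genes, Itga6 was the one called higher in stem-like cells against each of 8 gates, that is all but the megakaryocyte-like gate. Itgal was called lower against 7 gates, all but the megakaryocyte-like and erythroid-like ones. Against the lymphoid and myeloid gates these 2 genes thus differed in opposite directions.

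Against Flt3 multipotent-like cells, 1 of 9 genes was called higher in stem-like cells (15.3% of all genes tested were) and 3 of 9 lower (4.42% were). Itga6 was 5.0-fold higher (interval 4.08 to 6.19). Itgal, Itgam and Selplg were lower, at ratios of 0.0898 (interval 0.0603 to 0.130), 0.209 (interval 0.119 to 0.362) and 0.427 (interval 0.373 to 0.488). Cd44 stood just inside the limit at 0.516 and was called at 0.50 under stricter gate limits and 0.486 under a stricter cell filter. Cxcr4, at 0.573, was called at 0.50 with gating on thinned cells. The median ratio was 0.573 over the 9 genes and 1.10 over all genes tested. Against lymphoid-primed-like cells, 2 of 8 tested genes were called higher (18.6% of all genes) and 5 lower (6.27%). Itga6 and Itgb1 were higher, 10.1-fold (interval 6.64 to 16.2) and 2.23-fold (interval 1.78 to 2.83). Cxcr4, Itga4, Itgal, Selplg and Cd44 were lower, at ratios of 0.101 for Itgal to 0.462 for Itga4. The ratio of Itga6 rests on 22 UMIs in lymphoid-primed-like cells, 7 of them in 1 cell, and was 5.95 (interval 4.23 to 8.63) with gating on thinned cells. The call of Itga4 ended under a stricter cell filter, at 0.523.

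Against granulocyte-monocyte-like cells, 1 of 9 was called higher (30.1% of all genes) and 2 lower (6.98%). Against neutrophil-like cells the counts were also 1 (41.7%) and 2 (6.43%). In both, Itga6 was the gene called higher, 5.70-fold (interval 5.21 to 6.24) and 8.07-fold (interval 6.95 to 9.42), and Itgal and Itgam were those called lower. Itgam stood at 0.342 (interval 0.211 to 0.528) of its level in granulocyte-monocyte-like and 0.137 (interval 0.0845 to 0.212) of that in neutrophil-like cells. Cxcr4 did not differ from neutrophil-like cells beyond counting error, with a ratio of 1.02 (interval 0.846 to 1.24). The median ratio over all genes tested was 1.67 there, and 27.3% of them had a lower ratio than Cxcr4. Over the 9 genes the median was 1.43. Against granulocyte-monocyte-like cells it was 1.18 over the 9 genes and 1.36 over all genes tested. Against monocyte-like cells, 1 of 9 was called higher (28.7% of all genes) and 4 lower (9.53%): Cxcr4 at a ratio of 0.340 (interval 0.295 to 0.391), Selplg at 0.235 (interval 0.214 to 0.257), Itgal at 0.0884 and Itgam at 0.297.

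Against dendritic-like cells, 1 of 8 tested genes was called higher (27.5% of all genes) and 3 lower (9.07%). Those lower were Itgb2 at a ratio of 0.0786 (interval 0.0626 to 0.0980), Itgal at 0.0808 (interval 0.0541 to 0.118) and Selplg at 0.118 (interval 0.106 to 0.131). Against basophil or mast-like cells, 2 of 9 were called higher (22.0% of all genes) and 5 lower (6.88%). Cd44 joined Itga6 among those higher, 2.60-fold (interval 2.15 to 3.18), and Cxcr4, Itgal, Itgb2, Itgam and Selplg were lower. Selplg was at the limit, with a ratio of 0.499 (interval 0.441 to 0.565), and its call ended under 4 alternatives. In both comparisons the genes called lower were leukocyte integrin chains and Selplg, with Cxcr4 in the second.

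Against megakaryocyte-like cells, 1 of 8 was called higher (14.2% of all genes) and 0 lower (3.63%), and the gene was Selplg, 3.29-fold (interval 2.67 to 4.10). Itgb1 and Itgb2 were lower within the 2-fold limits, at ratios of 0.687 (interval 0.634 to 0.744) and 0.577 (interval 0.442 to 0.752). Against erythroid-like cells, 4 of 8 were called higher (34.4% of all genes) and 0 lower (12.1%). They were Itga6, 15.9-fold (interval 14.2 to 17.8), Selplg, 3.54-fold (interval 3.14 to 4.0), Itgal, 2.78-fold (interval 1.77 to 4.31), and Itgb2, 2.70-fold (interval 2.09 to 3.47). Itgal had 36 UMIs in 873 stem-like and 54 in 1156 erythroid-like cells, and Itgb2 had 105 and 162, at median depths of 8721 and 32789 UMIs. The part of stray UMIs in these 2 ratios was not tested. Weighing each cell alike brought Itgal to 1.37 and ended its call. The median ratio over the 8 tested genes was 2.07, against 1.30 over all genes.

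**Figure D3:**
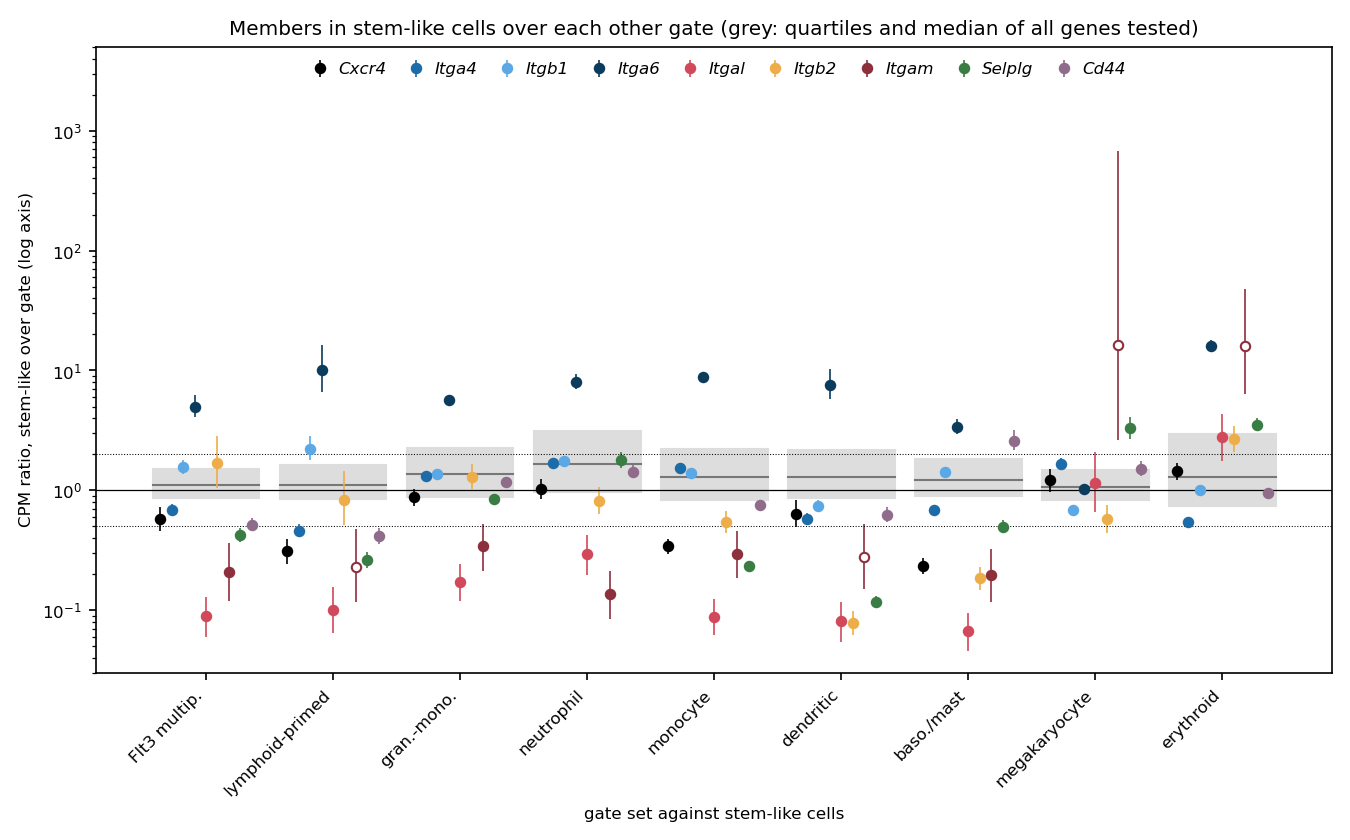
Ratio of the level in stem-like cells to that in each of 9 other gates (log axis) for the 9 genes, with exact 95% intervals; open points had under 50 UMIs in both gates together, grey boxes span the quartiles of all genes tested with their median as a line, and dotted lines mark ratios of 2 and 0.5. Itga6 lay above 2 against 8 gates and at 1.02 against megakaryocyte-like cells, and Itgal lay between 0.0666 and 0.292 against 7 gates.

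Gates of sister branches were compared next, chosen after the levels had been seen. Between the 2 phagocyte branches, 3 of 9 genes were called higher in monocyte-like than in neutrophil-like cells (16.6% of all genes were) and 1 lower (3.46%). Selplg was 7.60-fold higher (interval 6.77 to 8.56), Itgal 3.30-fold (interval 2.76 to 3.97) and Cxcr4 3.01-fold (interval 2.63 to 3.46). Itgam was lower, at a ratio of 0.461 (interval 0.382 to 0.557). Itga4 (1.09, interval 0.998 to 1.20) and Itga6 (0.916, interval 0.780 to 1.08) did not differ beyond counting error.

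Megakaryocyte-like and erythroid-like cells, which share a progenitor, differed in both alpha chains that pair with beta 1 among the 9 genes. Of 8 tested genes 3 were called higher in megakaryocyte-like cells (23.3% of all genes were) and 1 lower (9.24%). Itga6 was 15.6-fold higher (interval 13.9 to 17.6) and Itga4 lower, at a ratio of 0.330 (interval 0.298 to 0.365). Itgb2 was 4.68-fold higher (interval 3.68 to 5.93). Itgal was 2.39-fold higher (interval 1.39 to 4.0), from 22 and 54 UMIs, and at 1.25 with each cell weighing alike, which ended its call. Between lymphoid-primed-like and Flt3 multipotent-like cells, 0 of 8 tested genes were called higher (1.93% of all genes were) and 1 lower (2.18%). That gene was Itga6 at a ratio of 0.495 (interval 0.297 to 0.792), and its call ended under 4 alternatives, at 0.517 to 0.764. Cxcr4 (1.85, interval 1.41 to 2.41), Selplg (1.62, interval 1.39 to 1.89) and Itga4 (1.48, interval 1.28 to 1.72) were above 1 beyond counting error and within the 2-fold limits.

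Levels also varied inside gates. Along the erythroid-like gate, cells were split at the median of their haemoglobin UMIs (2.91 per 10000 UMIs) into 578 with more, called later here, and 578 with fewer. Of 8 tested genes 1 was called higher in later cells (4.71% of all genes were) and 4 lower (12.6%). Cxcr4 was higher, at 23.6 against 10.3 CPM (2.30-fold, interval 1.93 to 2.75). Itga6 was lower, at 2.04 against 20.0 CPM (ratio 0.102, interval 0.0715 to 0.143). Selplg (0.282, interval 0.231 to 0.342), Itgb2 (0.361, interval 0.251 to 0.512) and Itgal (0.289, interval 0.142 to 0.549) were lower too, and Itgal reached 0.522 under stricter gate limits, which ended its call. Itga4 had 199.6 against 200.8 CPM (0.994, interval 0.949 to 1.04). The later cells held 24 doublet calls and the earlier 9, and without doublet calls the ratio of Itga6 was 0.0634 (interval 0.0397 to 0.0969). Without a cell filter it was 0.166 (interval 0.127 to 0.215).

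Cells were also put into 4 groups of 289 by haemoglobin. Itga6 had 25.0, 15.4, 2.14 and 1.93 CPM from the lowest to the highest group, and Selplg 29.0, 22.6, 8.84 and 5.35. Cxcr4 had 9.07, 11.3, 19.9 and 27.9 CPM. Itga6 and Selplg were thus lower, and Cxcr4 higher, in both upper groups than in both lower ones. Itga4 had nearly the same level in later and earlier cells, but 181.6 CPM (interval 173.5 to 190.1) in the third group and 220.7 (interval 211.0 to 230.7) in the last. Gata2, a factor of early progenitors that was used in no gate, had 66.3, 44.3, 9.91 and 5.69 CPM. Cd44 stood at 73.8, 80.2 and 79.4 CPM in the lower 3 groups and at 53.9 (interval 49.2 to 59.0) in the last.

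**Figure D4:**
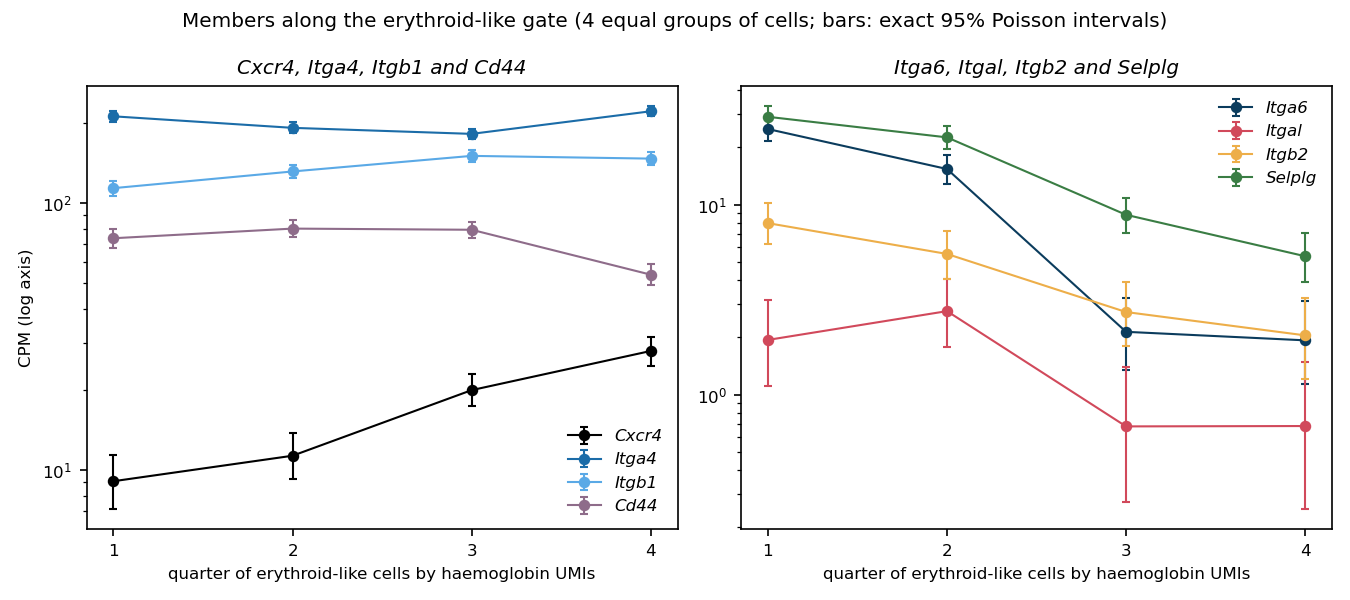
Levels (CPM, log axes) of 8 of the 9 genes in 4 groups of the erythroid-like gate ordered by haemoglobin UMIs, with exact 95% Poisson intervals. Itga6 went from 25.0 to 1.93 CPM and Cxcr4 from 9.07 to 27.9, and Itga4 had 211.3, 191.3, 181.6 and 220.7.

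In the 3 other gates that were split, 0 genes were called in either direction, of 7 tested in the stem-like and 9 in each of the other gates. Among neutrophil-like cells, 235 with more UMIs of later granule genes (S100a8, S100a9, Ngp, Ltf, Camp and Lcn2) were set against 235 with fewer, where 0.248% of all genes were called higher and 1.04% lower. Both Mac-1 chains were above 1 beyond counting error in the later cells, Itgb2 at a ratio of 1.82 (interval 1.27 to 2.61) and Itgam at 1.64 (interval 1.21 to 2.24). Of all genes tested, 99.6% and 99.3% had a lower ratio than these. Itgb1 was at 0.782 (interval 0.672 to 0.909), and the other 6 did not differ beyond counting error.

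Among monocyte-like cells, 667 with a UMI of Tgfbi, Vcan or Fn1 were set against 929 without, where 0.919% of all genes were called higher and 1.15% lower. Itgb2 (1.5, interval 1.30 to 1.74), Cxcr4 (1.48, interval 1.37 to 1.60) and Selplg (1.27, interval 1.21 to 1.32) were above 1. Cd44 (1.12) and Itgb1 (1.09) were above it by less, also beyond counting error. Among stem-like cells, 409 with a Vwf UMI, a gene of platelet-biased stem cells, were set against 464 without, where 0.551% of all genes were called higher and 0.580% lower. Itga6 had 183.0 against 152.7 CPM (1.2, interval 1.08 to 1.33), Itgb2 15.1 against 8.80 (1.72, interval 1.14 to 2.63) and Cd44 61.3 against 76.9 (0.797, interval 0.676 to 0.938). For Cxcr4 the interval, 0.591 to 1.03, held 1.

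**Figure D5:**
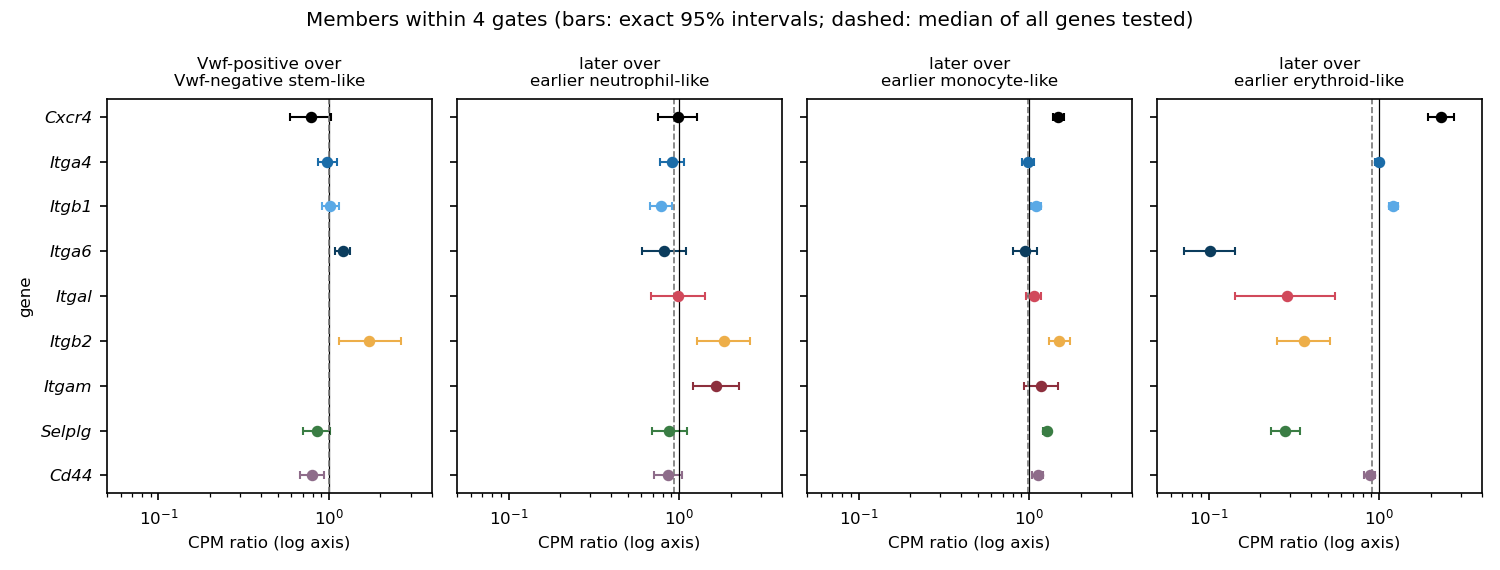
Ratios (log axes) of the genes with 50 UMIs or more between 2 parts of the stem-like, neutrophil-like, monocyte-like and erythroid-like gates, with exact 95% intervals; dashed lines are the medians of all genes tested. The erythroid-like gate was the one with ratios past 2-fold, from 0.102 for Itga6 to 2.30 for Cxcr4.

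Other genes of the same machinery were read from lists against neutrophil-like, monocyte-like and erythroid-like cells. The shares of all genes called in these comparisons, given above, were 41.7%, 28.7% and 34.4% higher and 6.43%, 9.53% and 12.1% lower in stem-like cells, and the counts of each list are to be read against these. Of 20 other integrin subunits, 5 had enough UMIs against neutrophil-like cells and all 5 were called higher in stem-like cells. They ranged from Itga5, the fibronectin receptor chain (21.8 against 7.79 CPM), to Itga2b, the platelet fibrinogen receptor chain (117.2 against 4.48 CPM, 26.1-fold, interval 19.2 to 36.5). Against monocyte-like cells 3 of 8 were higher and 4 lower. Itga1, a collagen receptor chain, had 0.343 CPM in stem-like cells from 3 UMIs and 52.0 in monocyte-like cells (ratio 0.00659, interval 0.00136 to 0.0193). Against erythroid-like cells 3 of 5 were higher and 0 lower, with Itgb3, the gene of the partner chain of Itga2b, at 49.8 against 0.439 CPM.

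Of 13 genes of integrin activation, 2 of 10 tested were called higher and 1 lower against neutrophil-like cells (41.7% and 6.43% of all genes were). Against monocyte-like cells 1 of 11 was higher and 1 lower (28.7% and 9.53%), and against erythroid-like cells 4 of 10 were higher and 0 lower (34.4% and 12.1%). Rasgrp2, which switches on the Rap1 GTPase, had 72.0 CPM in stem-like cells against 333.8 in neutrophil-like, 231.5 in monocyte-like and 7.13 in erythroid-like cells. Fyb, at the other end of the list, had 134.5 CPM in stem-like cells against 6.19 in neutrophil-like and 29.4 in monocyte-like cells. Of 9 genes that build selectin ligands on PSGL-1 and CD44, 4 were called higher and 1 lower against neutrophil-like cells, 2 and 2 against monocyte-like and 2 and 1 of 8 against erythroid-like cells. Fut7, the fucosyltransferase of these ligands, had 9.14 CPM in stem-like and 1.26 in erythroid-like cells. St3gal6, a sialyltransferase, had 16.5 CPM in stem-like, 0.747 in neutrophil-like and 63.6 in erythroid-like cells.

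Of 15 other homing and adhesion receptors, 8 of 11 tested were called higher in stem-like than in neutrophil-like cells and 2 lower (41.7% and 6.43% of all genes were). Against monocyte-like cells 6 of 13 were higher and 4 lower (28.7% and 9.53%). Esam, a junction protein of stem cells and endothelium, had 91.5 against 0.703 CPM, and the chemokine receptor gene Cx3cr1 0.228 from 2 UMIs against 47.2 (ratio 0.00484, interval 0.000586 to 0.0175). Against erythroid-like cells 9 of 11 were higher and 0 lower (34.4% and 12.1%). Of 10 genes of CXCR4 signalling, 3, 2 and 4 were called higher and 1, 3 and 0 lower against the 3 gates. Rgs1, which damps chemokine receptor signals, had 358.9 CPM in stem-like cells against 7.15 in neutrophil-like, 14.1 in monocyte-like and 9.85 in erythroid-like cells. Rac2, at the other end of the list, had 161.5 CPM in stem-like cells against 451.9 in neutrophil-like and 394.1 in monocyte-like cells. Cxcr4 itself stood at 24.9 CPM in stem-like cells, 7th of the 10 gates.

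Of 12 ligand genes usually read in niche cells, 5, 6 and 3 were testable against these gates, and 3, 2 and 3 were called higher in stem-like cells and 1, 2 and 0 lower (41.7%, 28.7% and 34.4% of all genes were higher, and 6.43%, 9.53% and 12.1% lower). Selp, the gene of P-selectin, to which PSGL-1 binds, had 106.1 CPM in stem-like, 74.0 in megakaryocyte-like and 10.9 or less in each other gate compared. Vcam1, a ligand of VLA-4, had 86.4 CPM (interval 80.5 to 92.5) in neutrophil-like, 7.44 in granulocyte-monocyte-like and 2.75 or less in each other gate. Icam1, a ligand of LFA-1, had 37.2 CPM in dendritic-like cells. It had 21.9 in lymphoid-primed-like, 21.4 in Flt3 multipotent-like and 21.0 in stem-like cells, and 11.1 or less in each other gate compared. Icam2, of the same list, had 56.1 CPM in stem-like cells and 18.8 or more in each gate compared. No contact between cells was measured.

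Genes with the most similar course over the 10 gates were named for each member by Pearson's r of log2(CPM + 10), over 9762 genes with 500 UMIs or more. The points share 1 library, and gates differ in depth, so r is a description. For Itga6 the nearest were Tle6 (r = 0.988), Prkg1 (0.972) and Pkd2 (0.972). For Itgal they were Cd53 (0.982), Tnfaip8l2 (0.979) and Nrm (0.957), and for Selplg Arhgap9 (0.985), Gm42031 (0.975) and Map7d1 (0.970). Cd44 was nearest to Nsmce1 (0.970), Itgam to Rac2 (0.953), Itgb2 to Ccl6 (0.943), Itga4 to Ikzf1 (0.931), Cxcr4 to Ly6e (0.927) and Itgb1 to Slc25a24 (0.927).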

How the data were processed

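The deposited values are UMI counts, which the authors obtained from a 10x Chromium 3′ v3.1 library by Cell Ranger 6.0.2 against mm10, per their methods and processing notes. The labels also describe a bulk RNA kit, which the form of the counts does not match. The counts are raw whole numbers. The study's filter was applied (UMIs over 1000 and under 50000, genes over 1000 and under 6500, mitochondrial share under 7%). A cell entered a gate when its marker UMIs per 10000 UMIs and its number of different markers reached set limits. The limits, and the rule by which a cell that passed 2 gates went to the more committed one, were set after marker levels had been seen and before the 9 genes were read. The members and lists were chosen with earlier results of these data known, and all 9 members are named by rule. Examples from other lists are those with the highest and lowest ratio, except Gata2, Selp, Vcam1, Icam1 and Icam2 where given by gate, which were chosen after their values were seen. The splits of the monocyte-like and erythroid-like gates, the 4 haemoglobin groups and the sister gates were added after gates or levels had been seen. Scrublet (run from scanpy 1.11.5, expected rate 6%) marked 265 cells (3.47%) as doublets, which were kept, since the methods name no removal. Thinning left out 99 shallower cells. Intervals were computed with scipy 1.17.1 and the steps were tested on simulated data. Coordinates are from GENCODE M21 on GRCm38. Alternatives were thinned gating, limits 2 times as strict, doublets removed, a stricter cell filter (5000 UMIs, mitochondrial share under 5%), no cell filter, another denominator, equal weight per cell and no minimum of UMIs. Cells with Brd9 deleted are not analysed here. Some withheld genes are not reported here.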

Additional observations from a re-analysis of the deposited data

How the results depend on the processing

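No paired analysis was possible because the data are 1 library. Of 72 counts of genes past 2-fold between stem-like cells and another gate, taken over the alternatives, 71 stayed within 1.5 times, and without a minimum of UMIs the count against megakaryocyte-like cells went from 1 to 2, since Itgam with 1 UMI there then entered. Of 52 ratios past 2-fold in the 16 comparisons, 46 were so under all 7 alternatives for a ratio, and the other 6 are named with their results (Itga4 stem-like over lymphoid-primed-like, Selplg stem-like over basophil or mast-like, Itgal in 3 comparisons with erythroid-like cells, Itga6 lymphoid-primed-like over Flt3 multipotent-like). With stricter gate limits 2 ratios of Itgb2 reversed, stem-like over Flt3 multipotent-like from 1.68 to 0.957 (interval 0.529 to 1.84) and over granulocyte-monocyte-like from 1.30 to 0.931 (interval 0.681 to 1.25). The cause was not tested. Of 1007 ratios under alternatives 937 stayed within their interval, and of 693 levels 552. The denominator without mitochondrial, ribosomal protein and haemoglobin UMIs moved 88 levels and 0 of 144 ratios. The ratio of Itgam to megakaryocyte-like cells had no value under stricter limits, since no UMI was left there. Itgam ratios of stem-like cells rest on 23 UMIs and moved by over 1.5 times against several gates, for example from 0.137 to 0.0808 against neutrophil-like cells when gating on thinned cells. Stricter limits took Itgal stem-like over Flt3 multipotent-like from 0.0898 to 0.0566 and over monocyte-like from 0.0884 to 0.0549, and Itgb2 over monocyte-like from 0.546 to 0.361, past 2-fold. Itga6 stem-like over lymphoid-primed-like went from 10.1 to 5.95 on thinned gating, and later over earlier erythroid-like from 0.102 to 0.166 without a cell filter. Depth limits Itgal, Itgb2 and Itgam in stem-like cells, and 1 library gives no spread between mice.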
